A study of Homo sapiens with 6 samples.

Results

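APELA, APLN and APLNR are the genes of the 2 known peptide ligands of the apelin receptor and of the receptor itself. They were found in the deposited counts by their Ensembl identifiers, so they are 3 of the 19977 genes listed. All 3 had at least 10 counts over the 6 libraries, the limit for testing, which 16505 genes passed. They were chosen because the level of APELA was known to be far lower in one of the media compared here. The levels of the 3 genes are therefore given as a description, with no test.

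The samples were bulk RNA of NCRM-1, an established wild type line of human induced pluripotent stem cells (hiPSCs) made from CD34+ cord blood cells with episomal plasmids. Single cells taken from vitronectin-coated plates were seeded in vertical wheel bioreactors with the ROCK inhibitor Y-27632 and grown as aggregates for 4 days, and 50% of the medium was replaced on day 2. Of the 6 libraries, 3 came from Essential 8 medium (E8) with 10 mg/ml polyethylene glycol and 0.1 µg/ml heparin (labelled PEG and HS, here PEG/HS), and 3 came from E8 without these additives (labelled Control, here plain E8). The comparison asks how the transcriptome of the aggregates differs with the additives. The labels name the additives in the treatment text of all 6 libraries, also of the 3 whose treatment is Control, and the groups here follow the treatment field. They read as 1 bioreactor for each medium, so medium and vessel cannot be told apart and each error below may be the spread between samples of one vessel.

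APELA, also called ELABELA or Toddler, is a short secreted peptide whose gene was first annotated as noncoding. It is made as a precursor whose signal sequence is removed, and convertases such as furin can cut the rest at paired basic residues. Apelin, the product of APLN, is matured from a longer precursor. Both bind APLNR, a receptor coupled to inhibitory G proteins and beta-arrestins, with known roles in gastrulation, heart formation and blood vessels. In human pluripotent cells APELA is known as an endogenous factor of self-renewal that acts through the kinases PI3K and AKT, and it was described there in cells that lack APLNR.

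The coding sequences of the ligand genes are shown because they hold the paired basic codons at which the precursors can be cut. They were read from GENCODE 44 transcripts (GRCh38), 5′ to 3′ in the sense direction from start to stop codon, and capitals mark every run of 2 or more arginine or lysine codons.
APELA: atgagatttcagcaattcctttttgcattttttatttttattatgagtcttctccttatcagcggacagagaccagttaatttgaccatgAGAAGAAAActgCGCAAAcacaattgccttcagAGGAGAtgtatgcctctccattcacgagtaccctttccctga
APLN: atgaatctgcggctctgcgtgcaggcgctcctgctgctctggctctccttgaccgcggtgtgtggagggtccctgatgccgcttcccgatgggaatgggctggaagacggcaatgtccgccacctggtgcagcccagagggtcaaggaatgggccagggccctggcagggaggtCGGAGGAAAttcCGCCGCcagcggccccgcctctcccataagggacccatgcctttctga
APELA has 165 coding bases, or 55 codons with the stop codon, and 3 such runs, which take 7 of its 10 arginine and lysine codons. APLN has 234 coding bases, or 78 codons, with 2 runs that take 5 of its 12 arginine and lysine codons. In both genes the runs lie in the later part of the frame. The first of them starts at codon 31 in APELA and at codon 59 in APLN.

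The 3 genes lie on different chromosomes (GRCh38). APELA (ENSG00000248329) spans 164877178 to 164898965 on the plus strand of chromosome 4, with 5 annotated transcripts and 2919 exonic bases. Its reading frame, from 164877332 to 164879005, lies in the first and second exons of the transcript shown, and the third exon is untranslated. APLN (ENSG00000171388) spans 129645259 to 129654956 on the minus strand of chromosome X, with 3224 exonic bases in 3 exons. APLNR (ENSG00000134817) spans 57233577 to 57237250 on the minus strand of chromosome 11, with 3674 exonic bases. No annotated gene overlaps any of them. APLN and APLNR share 0 of their 31-base transcript words with other genes, and APELA shares 0.875% of its 2972 words.

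APELA was counted 3107, 3813 and 4567 times in plain E8 and 1086, 892 and 1117 times in PEG/HS. As CPM, counts per 1000000 counts of a library scaled by edgeR's TMM factors, these are 115, 117 and 127 in plain E8 and 32.2, 31.6 and 33.0 in PEG/HS. All 3 PEG/HS libraries lay far below all 3 plain E8 libraries, and no library stood between the groups. The mean was 119.7 ± 6.05 CPM (SD, n = 3) in plain E8 and 32.3 ± 0.721 CPM (SD, n = 3) in PEG/HS, which is 3.71-fold lower. The log2 ratio of PEG/HS over plain E8 in the fit was -1.89 with a standard error (SE) of 0.0419. The means differed by 87.4 CPM, whereas the SD between replicates was 5.05% of the mean in plain E8 and 2.24% in PEG/HS. In bulk RNA, fewer cells with the transcript and less of it in each cell cannot be told apart.

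APLN had 28, 34 and 21 counts in plain E8 and 17, 17 and 26 in PEG/HS. Its level was 1.04, 1.05 and 0.582 CPM in plain E8, and 0.504, 0.602 and 0.768 CPM in PEG/HS. Plain E8 replicates 1 and 2 lay above all PEG/HS libraries and replicate 3 lay within their range, so the media overlapped. The means were 0.889 ± 0.266 and 0.625 ± 0.134 CPM, plain E8 first (log2 ratio -0.49, SE 0.320). From 83 counts in plain E8 and 60 in PEG/HS, scaled by library totals, the ratio was 0.725, with an exact (Clopper-Pearson) 95% interval of 0.512 to 1.02 that covers counting error only.

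APLNR, the receptor, had 16, 12 and 25 counts in plain E8 and 13, 18 and 21 in PEG/HS. These were 0.593, 0.369 and 0.693 CPM in plain E8, and 0.386, 0.637 and 0.621 CPM in PEG/HS. The range of PEG/HS lay wholly inside that of plain E8. The means were 0.552 ± 0.166 and 0.548 ± 0.141 CPM, plain E8 first (log2 ratio -0.021, SE 0.360). The count ratio was 0.985, with an exact 95% interval of 0.658 to 1.47. This interval, too, covers counting error only, and a change within it was not detectable at this depth.

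Between the media, 1 of the 3 genes did not overlap, APELA, where 39.3% of all genes tested did not overlap, 19.8% lower and 19.5% higher in PEG/HS. Since the genes were chosen on this contrast, nothing is read from that count.

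**Figure D1:**
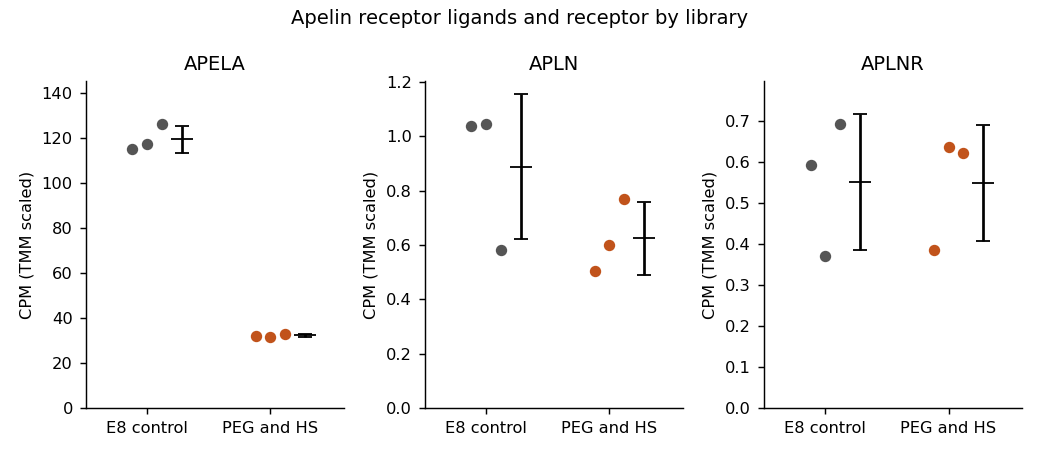
CPM of APELA, APLN and APLNR (y axes, each from 0 and on its own scale) in the 3 plain E8 libraries (E8 control in the plot) and the 3 PEG/HS libraries, 1 point per library, with the mean and SD of each medium beside the points. APELA lies between 115 and 127 CPM in plain E8 and between 31.6 and 33.0 CPM in PEG/HS, whereas APLN and APLNR overlap between the media.

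Levels were compared between genes after division by exonic length (CPM per kb). In plain E8, APELA stood at 41.0 ± 2.07 CPM per kb (SD, n = 3), APLN at 0.276 ± 0.0824 and APLNR at 0.150 ± 0.0451. In PEG/HS the levels per length were 11.1 ± 0.247 for APELA, 0.194 ± 0.0414 for APLN and 0.149 ± 0.0383 for APLNR. APELA was the highest of the 3 in all 6 libraries. APLN was above APLNR in 5 of the 6 libraries, but the ranges of these 2 genes overlapped in each medium, so their order is not beyond the spread between libraries. The level per length of APELA was 229.9 to 399.9 times that of APLNR in the plain E8 libraries and 62.4 to 105.1 times in the PEG/HS libraries. It was 122.6 to 240.2 times that of APLN in plain E8 and 47.5 to 70.6 times in PEG/HS. The ligand transcript thus stood far above the receptor transcript in both media, with the receptor resting on few counts.

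Among the 16473 tested genes with an annotated length, the median level was 3.45 CPM per kb in plain E8 and 3.40 in PEG/HS. APELA lay above 94.4% to 95.0% of these genes in the plain E8 libraries and above 76.2% to 77.0% in the PEG/HS libraries. Its rank by mean level per length was 887 in plain E8 and 3853 in PEG/HS. APLN lay above 14.8% to 19.8% of the genes and APLNR above 11.2% to 15.7%, over all libraries. Among the 13557 genes with a mean of at least 1 CPM, 52 had a lower log2 ratio than APELA. APELA was chosen for its fall, so this place is a description. Among the 2237 genes with at least 100 CPM in plain E8, a limit set on the medium where APELA is high, 2 had a lower log2 ratio. These were SERPINB9, a serpin that inhibits granzyme B (log2 ratio -3.83), and PKDCC, a secreted kinase (log2 ratio -1.94), which are named here because of these values.

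**Figure D2:**
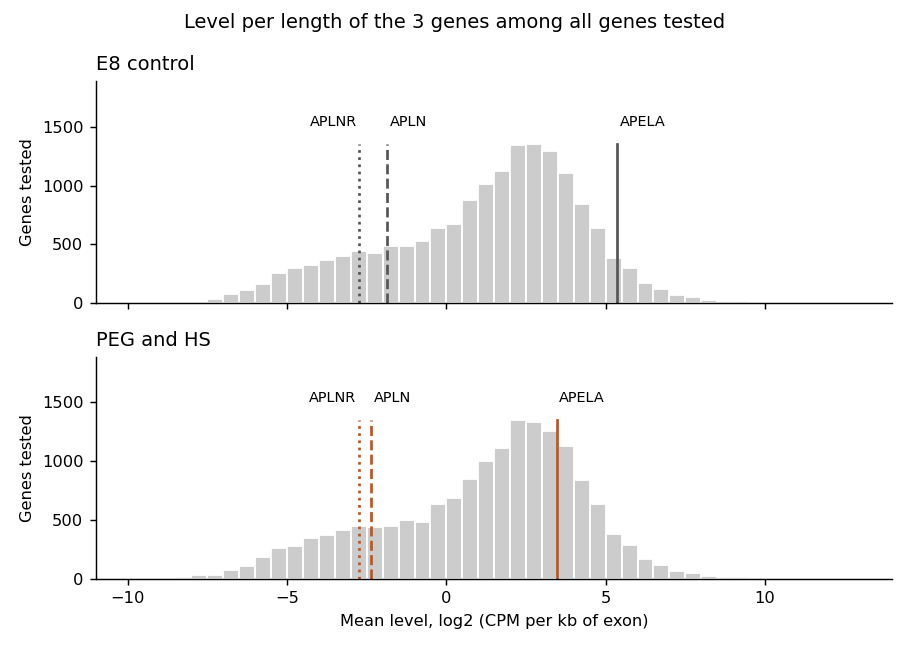
Number of tested genes (y axis) by mean level per exonic length (x axis, log2 of CPM per kb, bins of 0.5) in plain E8 (top, E8 control in the plot) and PEG/HS (bottom), with vertical lines at the means of APELA (solid), APLN (dashed) and APLNR (dotted). APELA moves from 41.0 CPM per kb in the upper tail to 11.1 CPM per kb, nearer the centre, and the other 2 genes stand in the lower tail in both media.

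Pluripotency genes were expressed at high levels in both media. All 18 markers of undifferentiated pluripotent cells were above 1 CPM, from NANOG (126 ± 0.610 CPM in plain E8, 185 ± 1.76 in PEG/HS) to the DNA methyltransferase DNMT3B (2216 ± 26.7 and 2239 ± 26.4 CPM). Their summed level ranged from 13083 to 13348 CPM in plain E8 and from 12948 to 13207 CPM in PEG/HS, and these ranges overlap. In such a sum, rises and falls of single genes can cancel. A gene was called where the quasi-likelihood test of edgeR gave a p below 0.05 after adjustment over all genes tested (Benjamini-Hochberg), and by this limit 7 of the 18 were higher and 6 lower. That is 72.2% of the list, with log2 ratios from -0.59 for SOX2 to 0.55 for NANOG. SOX2 fell from 412 ± 11.8 to 273 ± 3.92 CPM (adjusted p = 4.79e-10), and NANOG was called higher (adjusted p = 6.55e-10). Over all genes tested 25.3% were called, 12.2% higher and 13.1% lower.

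Most called markers of neuroectoderm, and all called markers of amnion and trophectoderm, were lower in PEG/HS, as APELA was. Of 12 neuroectoderm markers, 9 were called lower in PEG/HS and 1, SIX6, higher. Their summed level was 153 to 159 CPM in plain E8 and 56.3 to 62.1 CPM in PEG/HS, with 0 of the 12 at 0 in all libraries. Most of the sum in plain E8, and of its fall, came from OTX2 and LHX5, the latter at 29.6 ± 1.66 and 5.73 ± 0.880 CPM. OTX2, a homeobox factor of the forebrain, fell from 79.4 ± 1.55 to 18.6 ± 1.31 CPM (log2 ratio -2.10, SE 0.0474, adjusted p = 2.08e-13). LHX5 (log2 ratio -2.37), SOX1 (-1.70), SIX3 (-1.35) and PAX6 (-1.17), further neural transcription factors, fell as well, with adjusted p from 2.25e-11 to 0.0016. HES5, a Notch target and the lowest of the list, had 0.388 and 0.124 CPM, plain E8 first, and it was not called without PEG/HS replicates 1 or 2 or plain E8 replicates 1 or 2 (log2 ratio -1.61 to -1.34). The part of these markers in the level of APELA was not tested.

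Of 10 tested amnion and trophectoderm markers, 5 were called lower and 0 higher, and the summed level was 34.3 to 36.7 CPM in plain E8 against 18.7 to 19.9 CPM in PEG/HS. TFAP2C, a factor of trophoblast and germ cells and the highest of the list, fell from 18.3 ± 0.419 to 11.3 ± 0.591 CPM (adjusted p = 6.47e-07). TFAP2A, its relative in surface ectoderm and amnion, fell from 6.003 ± 0.230 to 0.603 ± 0.269 CPM (log2 ratio -3.30, SE 0.204, adjusted p = 9.84e-09), and GATA2 from 1.59 ± 0.283 to 0.674 ± 0.0700 CPM (adjusted p = 0.00147). TP63, a surface ectoderm gene, had 13 counts in all, and the trophectoderm factor CDX2 had 3. The part of these markers was not tested.

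Endoderm markers summed to 11.1 to 12.1 CPM in plain E8 and 8.07 to 8.89 CPM in PEG/HS. Of 9 tested, 1 was called, HHEX, which fell from 3.95 ± 0.257 to 2.52 ± 0.135 CPM (log2 ratio -0.64, SE 0.128, adjusted p = 0.00164). Over all libraries, SOX17 had 2 counts, GATA6 15, AFP 252 and FOXA2 437. FOXA2 had 2.66 ± 0.381 and 1.94 ± 0.0943 CPM, plain E8 first, and was not called (adjusted p = 0.0609). Mesoderm and primitive streak markers summed to 62.2 to 66.2 CPM in plain E8 and 67.3 to 70.2 CPM in PEG/HS, with 1 of 10 tested called higher and 2 lower. Most of that sum was KDR, a VEGF receptor, which rose from 52.4 ± 1.65 to 59.8 ± 1.74 CPM (log2 ratio 0.19, SE 0.0382, adjusted p = 0.00176). TBXT had 45 counts, MSGN1 had 0, and HAND1, which also stands in the amnion list, had 16. TBX6, PDGFRA and MIXL1 had 694, 662 and 324 counts. TBX6 fell from 4.19 ± 0.424 to 3.02 ± 0.161 CPM (log2 ratio -0.48, SE 0.126, adjusted p = 0.0114). PDGFRA and MIXL1 were not called (adjusted p = 0.109 and 0.122). HAND1 was called lower (adjusted p = 0.0276), but it was not called without PEG/HS replicates 2 or 3 or plain E8 replicate 1 (log2 ratio -3.26 to -3.03).

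Endothelial markers were read because APLN and APLNR are best known from blood vessels, and they differed widely in level. The junction genes PECAM1 and CDH5 had 18 and 59 counts over the 6 libraries, while the receptor genes TEK and TIE1 had 734 and 725, the transcription factor gene ERG 1800 and the secreted factor gene EGFL7 4194. The summed endothelial level was 38.8 to 42.3 CPM in plain E8 and 40.0 to 48.1 CPM in PEG/HS, with 2 of 10 tested genes called higher and 2 lower. EGFL7 was not called (22.01 ± 1.67 and 21.9 ± 2.78 CPM, adjusted p = 0.895). ERG rose from 7.20 ± 0.677 to 11.7 ± 1.35 CPM (log2 ratio 0.69, SE 0.0945, adjusted p = 6.31e-05) and TIE1 from 3.06 ± 0.0620 to 4.54 ± 0.265 CPM (log2 ratio 0.57, SE 0.116, adjusted p = 0.00207). TEK fell from 4.97 ± 0.255 to 2.69 ± 0.119 CPM (log2 ratio -0.89, SE 0.117, adjusted p = 4.23e-05). VWF, the gene of von Willebrand factor, fell from 2.34 ± 0.0916 to 0.853 ± 0.276 CPM (log2 ratio -1.47, SE 0.225, adjusted p = 0.00017). Blood markers, read because the line comes from cord blood, summed to 7.68 to 8.53 CPM in plain E8 and 6.83 to 7.54 CPM in PEG/HS. Of 6 tested, 0 were called by edgeR, from SPI1 (48 counts in all) to CD44 (4.79 ± 0.876 and 3.77 ± 0.351 CPM, adjusted p = 0.097). The part of these markers was not tested.

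Lists of genes around the receptor were then read in the same fit. They cover enzymes that process or break down the peptides, proteins that couple or desensitise such receptors, the PI3K, AKT and mTOR route, and related peptide receptors with their ligands. Each is set beside the 25.3% called and the median log2 ratio of 0.0031 over all genes tested.

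Of the 22 genes that process or break down peptides, 2 were called higher and 4 lower (27.3%), and the median log2 ratio was -0.020. FURIN, the convertase known to cut the APELA precursor, had 52.7 ± 0.830 CPM in plain E8 against 52.2 ± 1.19 in PEG/HS (log2 ratio -0.014, SE 0.0362, adjusted p = 0.825). PCSK7, another broadly expressed convertase, had 64.1 ± 2.77 and 67.3 ± 2.41 CPM (adjusted p = 0.222). The neuroendocrine convertase PCSK2 fell from 1.28 ± 0.287 to 0.585 ± 0.162 CPM (log2 ratio -1.14, SE 0.294, adjusted p = 0.0101). Of the signal peptidase, the catalytic subunit SEC11A was called lower, at 151 ± 2.73 and 142 ± 1.99 CPM (adjusted p = 0.0282), and the subunit SPCS3 higher, at 117 ± 7.70 and 129 ± 4.26 CPM with overlapping libraries (adjusted p = 0.0257).

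Among the peptidases, PREP, which cuts after proline in short peptides, rose from 85.3 ± 0.953 to 96.1 ± 2.43 CPM (log2 ratio 0.17, SE 0.0315, adjusted p = 0.000848). PRCP, which removes a last residue that follows proline, had 64.9 ± 1.91 and 59.9 ± 1.75 CPM and was called lower (adjusted p = 0.0306). CPE, a carboxypeptidase that trims the basic residues left by convertases, had 26.6 ± 0.693 and 23.9 ± 1.25 CPM and was called lower (adjusted p = 0.0456). CPD, of the same family, had 117 ± 4.59 and 109 ± 3.64 CPM (adjusted p = 0.0746). MME (neprilysin), a peptidase known to cut apelin, had 17.5 ± 0.354 and 17.96 ± 0.423 CPM (adjusted p = 0.695).

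Many calls in this list lay near the threshold and were lost with 1 library left out, while the log2 ratios kept their sign. Leaving out a library also lowered the calls over all genes tested, from 4173 to between 3114 and 3674. Without PEG/HS replicate 1, 1 of the 22 genes was called, and without plain E8 replicate 2, 3 were. SEC11A was not called without PEG/HS replicates 1 or 2 or plain E8 replicates 1 or 2 (log2 ratio -0.10 to -0.079). SPCS3 was not called without PEG/HS replicates 1 or 3 or plain E8 replicates 1 or 2 (log2 ratio 0.10 to 0.14). PRCP was not called without PEG/HS replicates 1 or 2 or plain E8 replicates 2 or 3 (log2 ratio -0.13 to -0.091). CPE was not called without PEG/HS replicates 1 or 2 or plain E8 replicates 1 or 3 (log2 ratio -0.14 to -0.12). PCSK2 was not called without PEG/HS replicate 1 (log2 ratio -0.94).

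Of the 30 G proteins, arrestins and receptor kinases, 4 were called higher and 5 lower (30%), and the median log2 ratio was -0.022. Among the inhibitory alpha subunits, through which APLNR signals, GNAI2 fell from 323 ± 7.27 to 289 ± 5.29 CPM (log2 ratio -0.16, SE 0.0274, adjusted p = 0.000476). GNAI1 (20.3 ± 2.01 and 21.00 ± 1.03 CPM, adjusted p = 0.692) and GNAI3 (112 ± 1.49 and 109.9 ± 1.41 CPM, adjusted p = 0.59) were not called. GNAO1 and GNAZ were called lower, with log2 ratios of -0.13 and -0.32 (adjusted p = 0.0285 and 0.0427). GNAO1 was not called without PEG/HS replicates 1 or 2 or plain E8 replicates 2 or 3 (log2 ratio -0.12 to -0.093). GNAZ was not called without PEG/HS replicates 1 or 3 or plain E8 replicates 1 or 3 (log2 ratio -0.35 to -0.18).

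Of the beta-arrestins, which bind activated receptors, ARRB1 rose from 28.96 ± 2.33 to 43.1 ± 1.51 CPM (log2 ratio 0.58, SE 0.0545, adjusted p = 1.27e-06), and its libraries did not overlap between the media. ARRB2 had 62.4 ± 3.04 and 59.9 ± 1.92 CPM and was not called (log2 ratio -0.058, SE 0.0409, adjusted p = 0.342). The difference between these log2 ratios was not tested. GRK2, a kinase that marks receptors for arrestin, had 72.5 ± 1.45 and 76.9 ± 3.30 CPM (adjusted p = 0.112).

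The regulators of G protein signalling speed the switching off of alpha subunits. RGS5, also known from pericytes, had the lowest log2 ratio of the list and fell from 8.35 ± 0.919 to 3.09 ± 0.398 CPM (log2 ratio -1.43, SE 0.118, adjusted p = 2.71e-07). RGS16 rose from 9.61 ± 0.880 to 12.7 ± 0.789 CPM (log2 ratio 0.40, SE 0.0789, adjusted p = 0.00149). RGS2 was called lower (log2 ratio -0.22, adjusted p = 0.0244), but it was not called without PEG/HS replicate 1 or plain E8 replicates 1 or 3 (log2 ratio -0.23 to -0.17). Outside the inhibitory class, GNA12, an alpha subunit of another class, rose from 135 ± 0.968 to 163 ± 5.93 CPM (log2 ratio 0.27, SE 0.0312, adjusted p = 1.09e-05), and the beta subunit GNB4 rose by 0.16 on the log2 scale (adjusted p = 0.00517). The beta subunit GNB1, the most abundant of the list (405 ± 6.81 and 415 ± 13.5 CPM, adjusted p = 0.43), and GNAQ, which acts on phospholipase C (138 ± 4.45 and 146 ± 2.998 CPM, adjusted p = 0.0695), were not called.

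Of the 37 tested genes of the PI3K, AKT and mTOR route, 3 were called higher and 7 lower (27%), and the median log2 ratio was -0.012. PIK3CG, a catalytic subunit of PI3K, had 0 counts and was not tested. The catalytic subunit PIK3CA had 19.9 and 21.2 CPM, plain E8 first, and was not called (adjusted p = 0.422). AKT1 and AKT2, kinases of the route, were not called either, at 74.5 and 73.9 CPM for AKT1 (adjusted p = 0.857) and 142 and 145 CPM for AKT2 (adjusted p = 0.621). MTOR, the kinase of the growth-regulating mTOR complexes, had 209 and 213 CPM (adjusted p = 0.642). These are transcript levels, and kinase activity was not measured in these files.

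INSR, the receptor of insulin, which E8 contains, fell from 43.5 ± 1.89 to 30.7 ± 0.789 CPM (log2 ratio -0.50, SE 0.0454, adjusted p = 7.59e-07). The insulin receptor substrates IRS4 and IRS2 had log2 ratios of -0.33 and -0.26 and were called lower (adjusted p = 0.00068 and 0.000144). IGF1R, the related receptor, had 206 ± 3.05 and 214 ± 4.95 CPM (adjusted p = 0.216). DEPTOR, an inhibitor of mTOR, fell from 4.17 ± 0.458 to 2.42 ± 0.369 CPM (log2 ratio -0.78, SE 0.145, adjusted p = 0.000922). PIK3R1, a regulatory subunit of PI3K, rose from 13.3 ± 0.710 to 16.7 ± 0.922 CPM (log2 ratio 0.32, SE 0.0654, adjusted p = 0.00184). EIF4EBP2, a translation repressor under mTOR, was the most abundant of the list (422 ± 1.34 and 441 ± 5.02 CPM) and was not called (adjusted p = 0.0698).

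**Figure D3:**
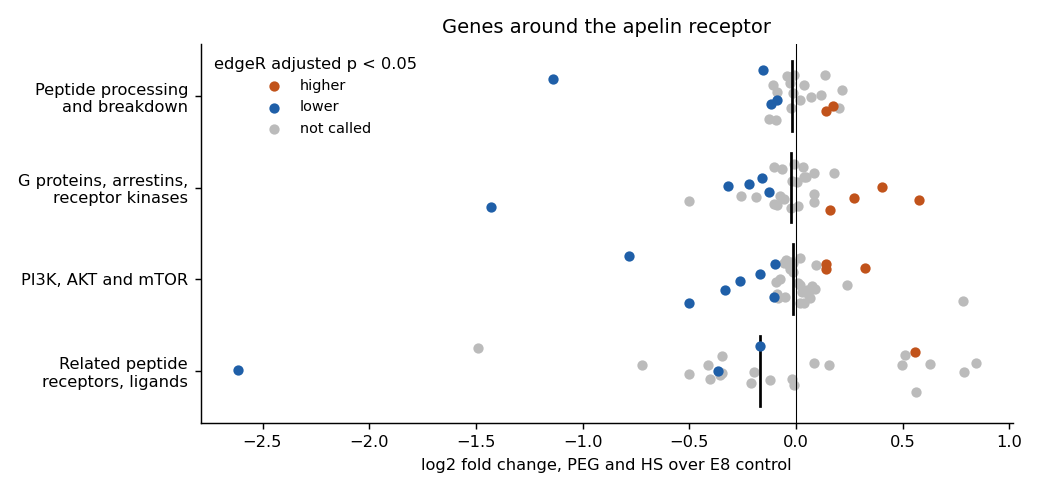
log2 ratio of PEG/HS over plain E8 (x axis, log2 fold change over E8 control in the plot) of each tested gene in 4 lists of genes around the apelin receptor (rows), with genes called higher in orange, called lower in blue and not called in grey, and the median of each list as a black bar. Points are spread vertically to separate them, and the medians lie between -0.17 and -0.012.

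Of the 25 tested genes for related peptide receptors and their ligands, 1 was called higher and 3 lower (16%), and the median log2 ratio was -0.17. Of the 25, 10 reached 1 CPM on average, so moderate changes of the rest were not detectable at this depth. AGTR1, an angiotensin receptor related to APLNR, had 12 counts in all. The chemokine receptor CXCR4 had 1.06 ± 0.229 and 0.830 ± 0.129 CPM (adjusted p = 0.383), and its ligand CXCL12 85.7 ± 0.809 and 84.6 ± 0.188 CPM (adjusted p = 0.692). ACKR3, another receptor of CXCL12, had 2.67 ± 0.274 and 2.01 ± 0.239 CPM (adjusted p = 0.0849).

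The called genes of this list belong to the endothelin and adrenomedullin systems. EDN1, the precursor of a vasoconstrictor peptide, fell from 1.30 ± 0.193 to 0.205 ± 0.0805 CPM (log2 ratio -2.62, SE 0.344, adjusted p = 3.95e-05). Of its receptors, EDNRB rose from 9.73 ± 0.607 to 14.3 ± 0.706 CPM (log2 ratio 0.56, SE 0.0702, adjusted p = 2.57e-05). EDNRA was called lower, at 4.52 ± 0.192 and 3.52 ± 0.143 CPM (adjusted p = 0.0268), but it was not called without PEG/HS replicates 1 or 3 or plain E8 replicate 2 (log2 ratio -0.35 to -0.33). ADM, a vasodilator peptide, fell from 70.7 ± 1.04 to 62.8 ± 1.02 CPM (log2 ratio -0.17, SE 0.0328, adjusted p = 0.00129). ECE1, which matures endothelin (83.7 ± 2.23 and 82.99 ± 2.57 CPM, adjusted p = 0.853), and the neuropeptide gene GAL (28.6 ± 2.41 and 31.9 ± 0.221 CPM, adjusted p = 0.0541) were not called.

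The tested genes near APELA did not fall as it did. Within 1000 kb, 7 genes were tested, 2 called higher and 1 lower (42.9%), with log2 ratios from -0.15 to 0.36. The nearest tested gene, TRIM61, lies 55.5 kb beyond the end of APELA and had 6.23 ± 0.489 and 5.80 ± 0.550 CPM (adjusted p = 0.51). Farther on, TMEM192, a lysosomal membrane protein gene, had 20.9 ± 0.220 and 21.2 ± 0.288 CPM (adjusted p = 0.771), and MSMO1, an enzyme of cholesterol synthesis, rose from 99.3 ± 3.68 to 119.8 ± 4.37 CPM (log2 ratio 0.27, SE 0.0361, adjusted p = 4.71e-05). The gene called lower was CPE, described above. On the other side the nearest tested gene was MARCHF1, a ubiquitin ligase gene 493 kb away. A nearer gene there, 73.4 kb away, had 0 counts and was not tested. MARCHF1 had 7.46 ± 1.11 and 9.51 ± 1.52 CPM and was called higher (adjusted p = 0.0437). It was not called without PEG/HS replicates 1 or 2 or plain E8 replicates 2 or 3 (log2 ratio 0.24 to 0.40).

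Near APLN, 1 gene was called higher and 2 lower of 13 tested (23.1%). Its nearest tested neighbours, the phosphatase gene OCRL (adjusted p = 0.474) and the aminopeptidase gene XPNPEP2 (adjusted p = 0.842), were not called. XPNPEP2 had 35 counts in all, so a moderate change of it was not detectable. BCORL1, 326 kb away, fell from 13.9 ± 0.346 to 8.04 ± 0.908 CPM (log2 ratio -0.80, SE 0.0801, adjusted p = 2.5e-06). Near APLNR, 2 genes were called higher and 1 lower of 22 tested (13.6%). The nearest there, LRRC55 and TNKS1BP1, had log2 ratios of -0.046 and 0.022 (adjusted p = 0.847 and 0.608). One of the genes called near APLNR, ENSG00000254732, had 0 counts in plain E8 and 30, 9 and 63 counts in PEG/HS. It overlaps other annotated genes, SELENOH and CTNND1 among them, so its counts are uncertain.

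**Figure D4:**
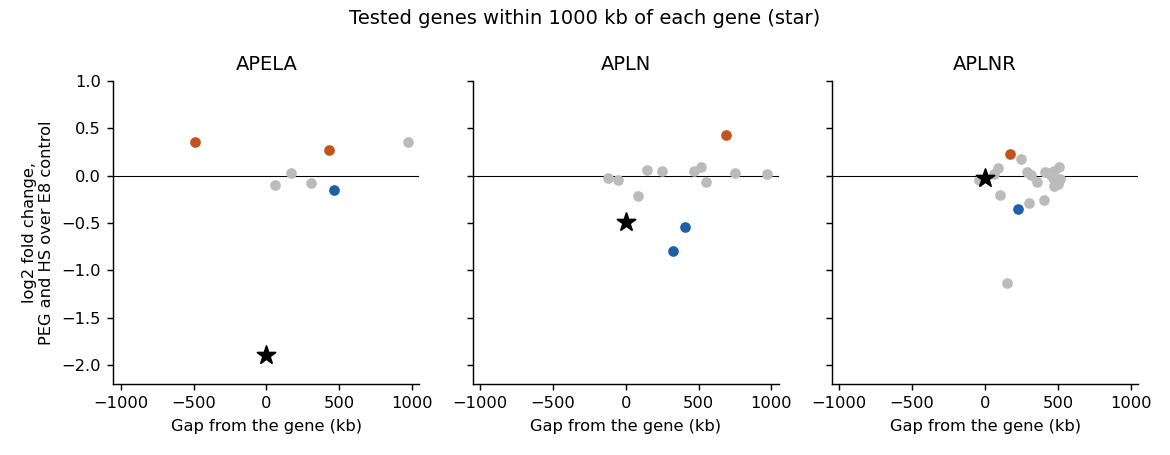
log2 ratio of PEG/HS over plain E8 (y axis, log2 fold change over E8 control in the plot) of the tested genes within 1000 kb of APELA, APLN and APLNR, by the gap between the genes in kb (x axis, negative for lower chromosome positions), with the gene itself as a black star, genes called higher in orange, called lower in blue and not called in grey. The star of APELA lies at -1.89 and its neighbours between -0.15 and 0.36, and ENSG00000254732 near APLNR is not drawn.

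The genes whose pattern was most like that of APELA were found by the root mean square distance over the 6 libraries between log2 CPM values centred on each gene's mean, among 13556 other genes with a mean of at least 1 CPM. The nearest 5 were PCDH18, ENSG00000277196, EGR1, FGFR3 and GCNT1, at distances of 0.0619, 0.0725, 0.0752, 0.0784 and 0.0939 log2 units, against a median of 0.952 over all genes compared. With 2 media and 6 libraries the distance mostly reflects the size of the difference between the media, and 244 genes had a Pearson correlation above 0.99 with APELA. These 5 were picked by their values, which are given as a description.

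PCDH18, a protocadherin, had 64.0, 64.7 and 64.8 CPM in plain E8, and 17.6, 18.6 and 18.8 CPM in PEG/HS. EGR1, an immediate early transcription factor, had mean levels of 32.1 ± 1.63 and 8.55 ± 0.170 CPM, plain E8 first. FGFR3, a receptor for fibroblast growth factors, had 55.4 ± 3.27 and 13.8 ± 0.477 CPM. In each of them all plain E8 libraries lay well above all PEG/HS libraries.

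GCNT1, an enzyme that branches O-linked glycans, had 39.9 ± 0.244 and 12.03 ± 0.0297 CPM, plain E8 first. ENSG00000277196, an identifier with no match in GENCODE 44, had 64.3 ± 3.26 and 16.3 ± 0.642 CPM. Of their 31-base transcript words, PCDH18 shared 0%, EGR1 0.0644%, FGFR3 0.297% and GCNT1 0.83% with other genes.

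**Figure D5:**
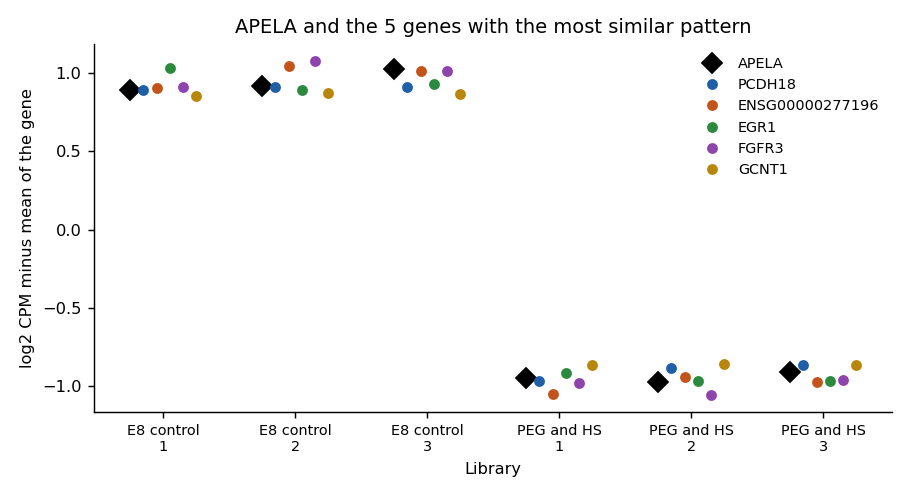
log2 CPM minus each gene's mean over the 6 libraries (y axis) for APELA (black diamonds) and the 5 genes with the smallest distance to it (coloured points), by library (x axis, plain E8 as E8 control). In each gene the 3 plain E8 libraries lie above 0 and the 3 PEG/HS libraries below 0.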

How the data were processed

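Poly(A) RNA of the 6 libraries was sequenced by the authors from stranded preparations, and the submitters' processing notes name Trim Galore 0.6.7, STAR 2.6.1 and GRCh38. The values deposited by the authors are raw counts per gene, 1 library per file, with totals of 26991279 to 36185138. The counting tool, its strand setting and the annotation release are not given in the sources used here. Of 19977 identifiers, 19916 matched GENCODE 44, which gave symbols, positions and lengths. No pair of replicates agreed within sampling noise (chi-square over its degrees of freedom was 2.61 to 3.60).

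From these counts, edgeR 4.0.16 in R 4.3.3 gave the tests (TMM, genes with at least 10 counts in all, glmQLFit and glmQLFTest, no covariate, Benjamini-Hochberg adjustment over 16505 genes, called under 0.05). SE is |log2 ratio| divided by the root of the F statistic. The common biological coefficient of variation was 3.12%. Alternatives were DESeq2 1.42.0, limma-voom (limma 3.58.1), other normalizations, filters and lengths, a replicate block and each library left out. The fit was tested on simulated data with large changes, in well-counted genes alone, and one dispersion for all genes. That does not bear on calls of small changes or at low counts.

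The members and lists were chosen with earlier results of these data known. Named by rule were, per list around the receptor, the 4 genes of highest mean CPM and up to 4 called genes of largest change with a mean of at least 1 CPM, then the nearest tested neighbours, the highest and lowest marker of each cell type, called markers with a log2 ratio beyond 1 and a mean of at least 1 CPM, and the 5 genes most like APELA. Chosen after their values were seen were FURIN, PCSK7, PCSK2, MME, GNAI1, GNAI3, GNAO1, GNB4, RGS2, ARRB2, GRK2, AKT1, PIK3CA, PIK3CG, IRS2, EDN1, CXCR4, ACKR3, AGTR1, MSMO1, TMEM192, BCORL1, ENSG00000254732, SIX6, CDX2, SOX2, SOX17, FOXA2, AFP, CDH5, ERG, TEK, TIE1, TBXT, TBX6, PDGFRA, MIXL1, MSGN1, SERPINB9 and PKDCC. Some genes of the lists are counted but not reported singly here.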

Additional observations from a re-analysis of the deposited data

How the results depend on the processing

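The log2 ratio of APELA lay between -1.90 and -1.88 under the other tests, normalizations and filters and the replicate block, and between -1.92 and -1.85 with each library left out. For APLN these ranges were -0.50 to -0.43 and -0.73 to -0.35, and for APLNR -0.031 to -0.0088 and -0.25 to 0.20, so the sign for APLNR rests on single libraries. With the longest transcript as the length, APELA stood at 49.2 CPM per kb in plain E8 and 13.3 CPM per kb in PEG/HS, and the order of the 3 genes by mean was the same. The number of genes called was 4173, 3367 with DESeq2 and 3114 to 3674 with a library left out. With a library left out, the genes called were 1 to 6 for peptide processing and breakdown (1 without PEG/HS replicate 1 and 3 without plain E8 replicate 2), 6 to 11 for G proteins, arrestins and receptor kinases, 7 to 9 for PI3K, AKT and mTOR, 3 to 5 for related receptors and 6 to 10 for neighbours. Same-numbered libraries of the 2 media did not deviate together (r = -0.0147, 0.0277 and 0.0596 over 13557 genes), so the numbers were not taken as pairs, and with the replicate block 4444 genes were called. Some named genes were not followed through the alternatives, SOX2, TBX6, FOXA2 and BCORL1 among them. Over those that were, 1134 of the single-gene values stayed on the same side of the threshold, 52 lost the call and 14 gained it. Genes that an alternative filtered out or gave no adjusted p, such as AGTR1 with DESeq2, were not judged there. No called value turned in sign, but some that were not called did, AKT1 and AKT2 among them. DESeq2 did not call CPE, EDNRA, GNAZ, HES5, MARCHF1, PRCP or RGS2, limma-voom did not call MARCHF1, library size alone did not call CPE, and the block did not call HES5. Depth limits APLN and APLNR, with 143 and 105 counts in all.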
